A study of Mus musculus with 34 samples.

Results

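The cytosolic ribosomal protein genes described here are all genes of the array whose symbol is Rpl, Rps or Rplp followed by the number of the protein. The rule took 61 of the 19047 genes that had a probe with a single gene symbol, and 90 of the 34885 such probes. Of the 61 genes, 37 (57 probes) belong to the large subunit of the ribosome and 24 (33 probes) to the small subunit. Kinases such as Rps6ka1 carry similar symbols and were not taken. RefSeq annotated 60 of the 61 as protein-coding and Rps4l as a transcribed pseudogene. RefSeq listed 83 protein-coding genes that match the rule, and 23 of them, among them Rpl5, Rpl10 and Rpl11, were not analysed here.

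A cytosolic ribosome joins a small subunit, which reads the message, and a large subunit, which links amino acids. Each subunit is built in the nucleolus from ribosomal RNA and a fixed set of proteins, most of them present in a single copy per particle. The messages of these proteins begin with a 5′ terminal oligopyrimidine (TOP) tract, through which mTORC1 controls their translation, and growing cells make more of them. The liver makes most plasma proteins and is rich in ribosomes.

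RNA from 34 livers and liver tumors of male C3H/HeNCrl mice, a strain prone to hepatocellular carcinoma (HCC), was hybridized to Illumina mouse BeadChips, with 1 array per sample. High-LET HCC (n = 7) arose in mice given a single whole-body dose of 0.1 to 1 Gy of iron or silicon ions, which deposit energy densely along their track. Low-LET HCC (n = 3) arose after 2 to 3 Gy of γ-rays, and spontaneous HCC (n = 4) in mice without irradiation. Livers free of HCC were from mice exposed to high-LET ions (n = 10, 1 Gy), to low-LET γ-rays (n = 4, 3 to 7 Gy by the labels) or to sham irradiation (n = 6), and are called high-LET, low-LET and sham livers. The paper names only iron as the ion for the high-LET livers. Whole-tissue RNA was used. The labels list the samples of a group separately and do not say that each came from its own animal, so the p-values measure the spread between these samples. In bulk tissue, fewer cells of a type and less RNA per cell cannot be told apart.

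Signals were corrected for background and brought to a common distribution by quantiles, and all levels are log2 values. A gene was read from its probe of highest mean signal. It was called when its Benjamini-Hochberg adjusted p in limma was under 0.1 over all 45219 tested probes and its fold change was above 1.3, the thresholds of the study's methods. Per array, between 20787 and 24751 probes lay above the background limit. The hepatocyte markers Alb, Apoa1, Ttr and 7 others were present in every group, with summed intensities of 107000 to 126000 in high-LET tumors, 118000 to 122000 in low-LET tumors, 112000 to 116000 in spontaneous tumors, 111000 to 124000 in high-LET livers, 112000 to 119000 in low-LET livers and 113000 to 126000 in sham livers. Summed macrophage markers reached 1810 to 6530 in high-LET tumors, 815 to 3380 in low-LET tumors and 1550 to 4220 in spontaneous tumors. The livers had 2030 to 2880 (sham), 1520 to 3760 (high-LET) and 2130 to 4640 (low-LET). T lymphocyte markers summed to 148 to 267, 134 to 358 and 204 to 274 in the same 3 kinds of HCC. In sham, high-LET and low-LET livers they summed to 136 to 194, 122 to 203 and 162 to 193. Only 1 of the 8 T lymphocyte genes was above background on all 34 arrays. The part of these cell types in the results below was not tested.

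The probes of these genes gave mean log2 signals of up to 14.49 (Rpl41). Probes differ in how well they bind, so their signals give no order of message levels. Of the 61 genes, 48 had a mean log2 signal of 8 or more (29 large and 19 small subunit genes), and these 48 are called the bright genes below, a division made after the data were seen. The other 13 included 10 that did not exceed the background limit on every array. Rpl39l and Rps20 exceeded it on no array, Rpl14 and Rpl17 on 1, Rpl6 and Rps23 on 2, Rpl3l on 13, Rpl22l1 on 15, Rps15a on 21 and Rps4l on 26 of 34. Many ribosomal protein genes also have processed pseudogene copies, and what such copies add to a probe was not tested.

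Ribosomal protein genes were called higher in tumors than in sham livers far more often than lower. In high-LET HCC 24 of 61 genes (39.3%) were called higher, against 4.62% of all 19047 genes, and 1 was called lower, against 5.47% of all genes. In low-LET HCC 8 of 61 (13.1%) were called higher, against 5.40% of all genes, and 1 lower, against 6.00%. In spontaneous HCC 34 of 61 (55.7%) were called higher, against 7.32% of all genes, and 1 lower, against 6.89%. The gene called lower was Rps4l in each kind.

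The changes were moderate in size. The median log2 fold change over the 61 genes was 0.31 in high-LET tumors, 0.23 in low-LET tumors and 0.50 in spontaneous tumors, while the median over all genes was -0.01, -0.01 and -0.00. The estimate was positive for 54, 50 and 52 of the 61 genes. The 3 comparisons share the 6 sham livers, so their agreement is not independent. The low-LET and spontaneous counts rested on the scaling of the arrays. With each array scaled to a common median in place of quantiles, 1 gene was called higher in low-LET tumors and 11 in spontaneous tumors. The low-LET count was 5 without low-LET tumor 2 and 12 without low-LET tumor 1, and with arrays weighted by quality the high-LET count was 15 and the low-LET count 18. The shares of all genes called under these settings are not given here, so the shifts may not be particular to these genes.

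**Figure D1:**
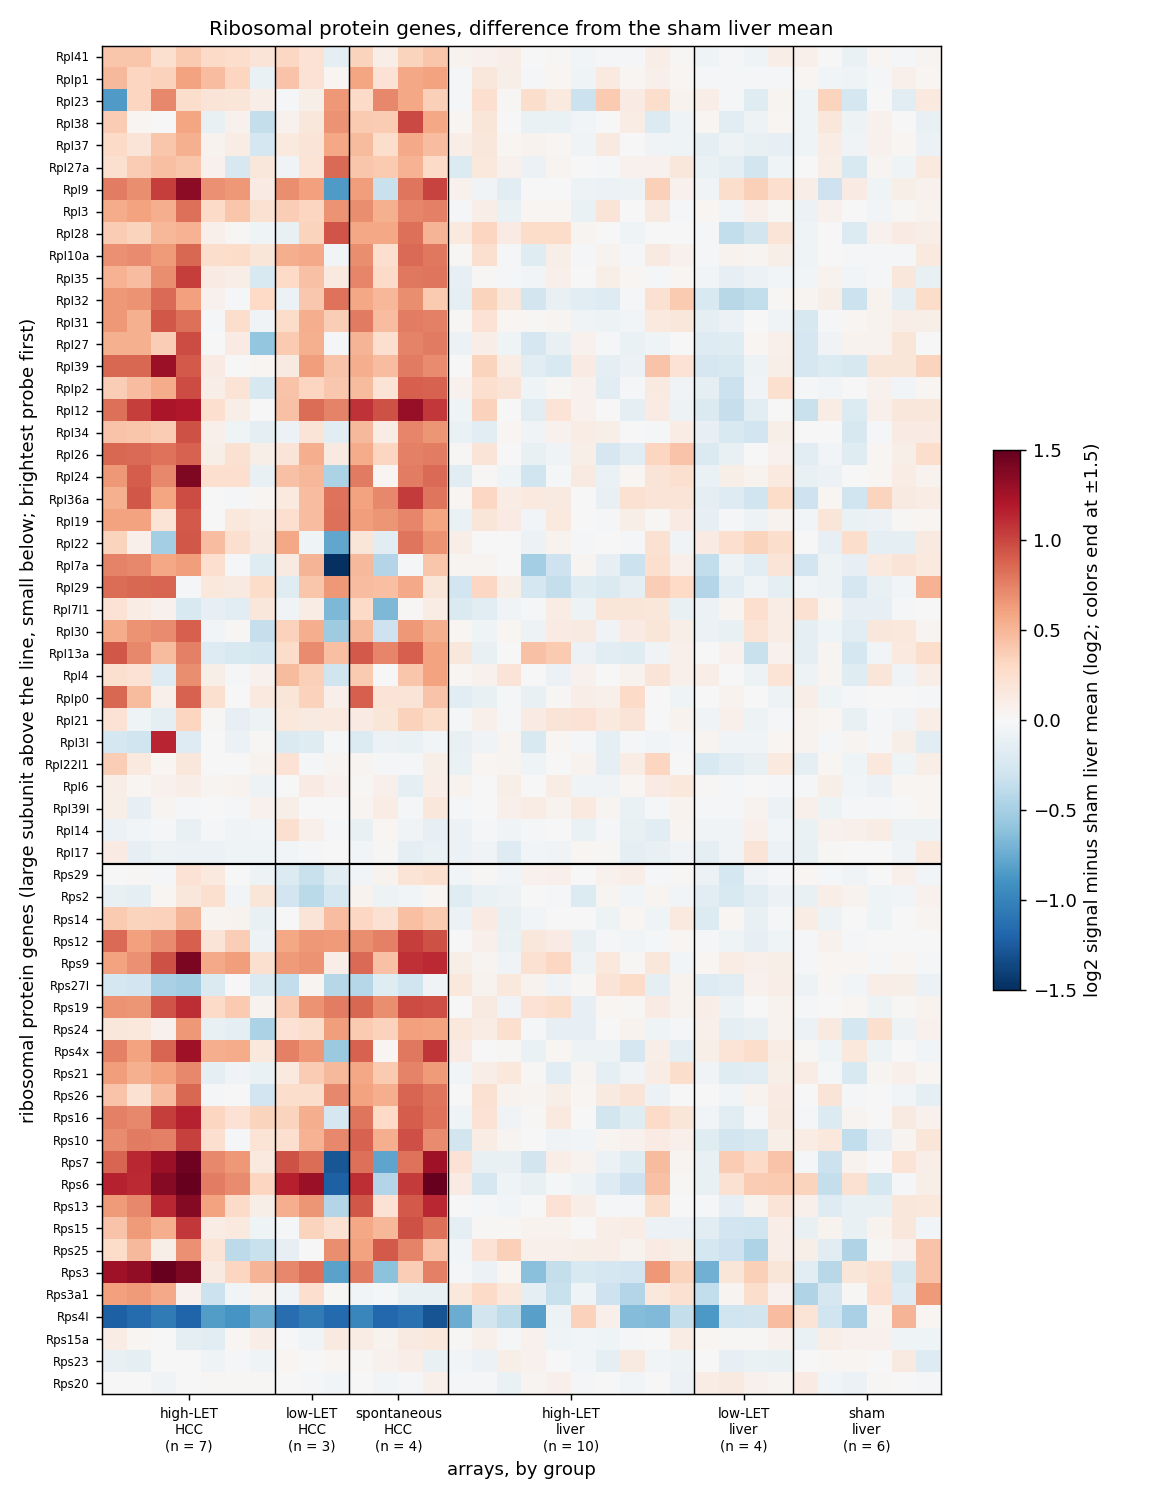
Log2 signal of each of the 61 genes (rows, large subunit above the line and small subunit below, brightest probe first) on each of the 34 arrays (columns, by group), shown as the difference from the sham liver mean of that gene. Most rows are raised across the tumor columns, the 3 high-LET tumors numbered 5 to 7 are paler than the other 4, and the liver columns lie near 0.

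The genes called higher were almost all bright ones. Among the bright genes 23 of 48 (47.9%) were called higher in high-LET tumors, 8 (16.7%) in low-LET tumors and 33 (68.8%) in spontaneous tumors, and over all 4461 genes of that brightness 9.26%, 10.5% and 15.5% were. Their median log2 fold changes were 0.38, 0.30 and 0.59, beside -0.08, -0.07 and -0.02 for all genes of that brightness. Among the 13 dim genes the medians were 0.00, 0.03 and 0.02, and Rplp0 was the only one called higher. The 5 brightest genes (Rpl41, Rps29, Rplp1, Rps2 and Rpl23) moved less than those of mean log2 signal 12 to 14: their medians were 0.14, 0.13 and 0.29, against 0.45, 0.36 and 0.63 for the 29 genes in that range. Whether such probes approach the upper end of the scanner was not tested, and the highest signal of any of these genes was 34271 where array maxima ran from 31404 to 46606.

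**Figure D2:**
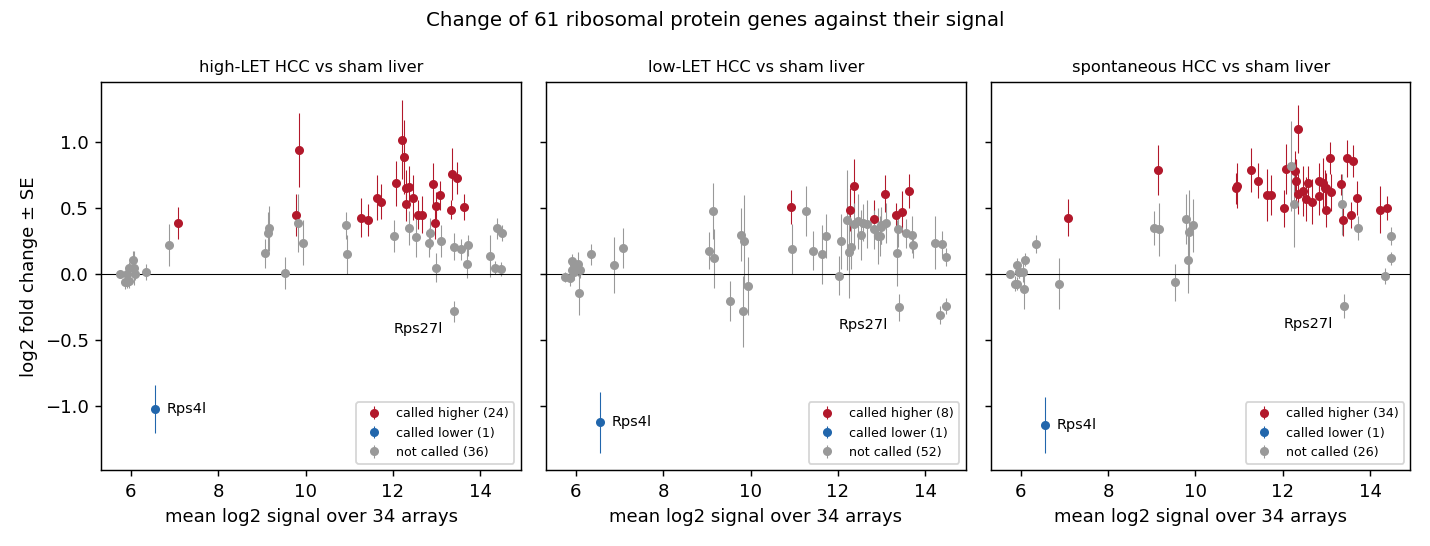
Log2 fold change (± SE) of each ribosomal protein gene in high-LET (left), low-LET (middle) and spontaneous (right) HCC against sham liver, plotted against its mean log2 signal over 34 arrays. The 24, 8 and 34 genes called higher lie almost all above a signal of 8, and Rps4l alone is called lower.

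The means of the large and small subunit lay close together. The mean over the 29 bright large subunit genes, as a difference from the sham mean, was 0.37 ± 0.29 over the 7 high-LET tumors (SD), 0.26 ± 0.12 over the 3 low-LET tumors and 0.53 ± 0.19 over the 4 spontaneous tumors. The same mean was 0.03 ± 0.07 in high-LET livers (n = 10), -0.04 ± 0.08 in low-LET livers (n = 4) and 0.00 ± 0.08 in sham livers (n = 6). For the 19 small subunit genes the means were 0.44 ± 0.30, 0.25 ± 0.22 and 0.56 ± 0.25 in the 3 kinds of tumor, and 0.02 ± 0.05, -0.02 ± 0.09 and 0.00 ± 0.05 in the livers in the same order. Within a tumor the small subunit mean minus the large subunit mean lay between -0.16 and 0.16. In high-LET HCC all 7 tumors had the higher mean for the small subunit, by 0.01 to 0.16, a range that overlaps that of sham livers (-0.06 to 0.09). Of the 29 large subunit genes 41.4%, 10.3% and 72.4% were called higher in high-LET, low-LET and spontaneous tumors. Of the 19 small subunit genes 57.9%, 26.3% and 63.2% were. Over all genes of that brightness the shares were 9.26%, 10.5% and 15.5%, so the large subunit share in low-LET tumors was near that of all bright genes.

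**Figure D3:**
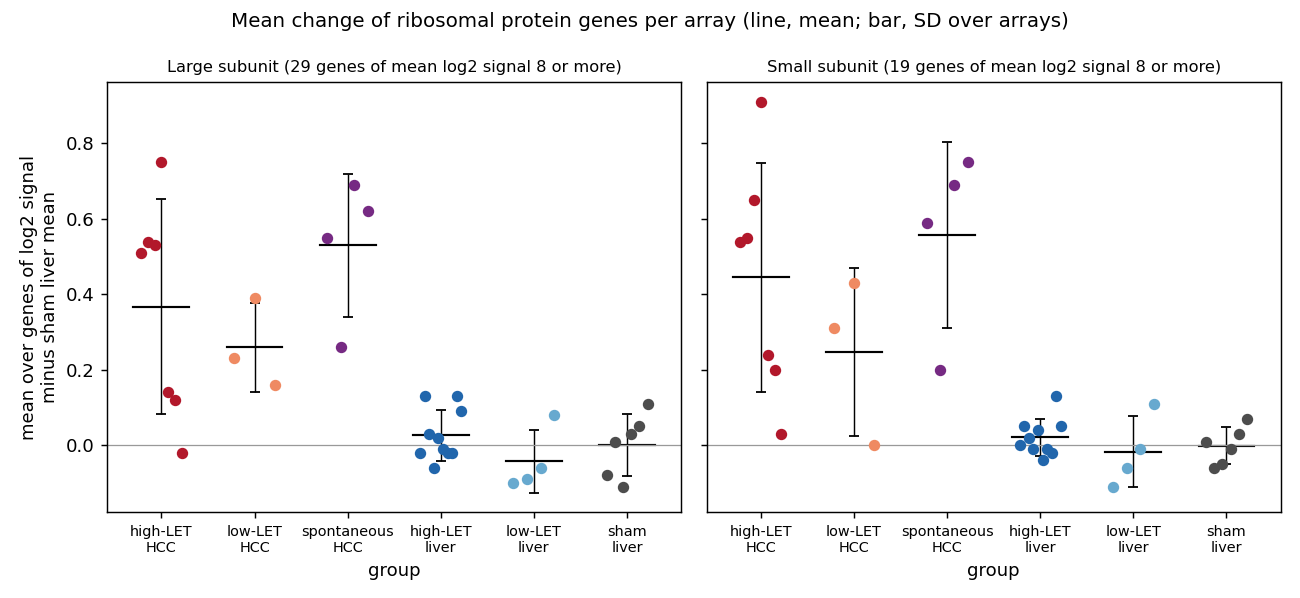
Mean over the 29 large subunit genes (left) and the 19 small subunit genes (right) of mean log2 signal 8 or more, as the difference from the sham liver mean, for each array, with the group mean (line) and SD (bar). Spontaneous tumors lie at 0.26 to 0.69 for the large subunit, low-LET tumors at 0.16 to 0.39, and high-LET tumors spread from -0.02 to 0.75, while all livers lie between -0.11 and 0.13.

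The tumors of 1 kind differed among themselves more than the livers did. Over the 48 bright genes, high-LET tumors 1 to 4 had means of 0.52, 0.54, 0.58 and 0.81 and high-LET tumors 5, 6 and 7 had 0.18, 0.15 and -0.00. Low-LET tumors had 0.26, 0.41 and 0.10, and spontaneous tumors 0.57, 0.24, 0.69 and 0.67. The sham livers had between -0.09 and 0.09. High-LET tumors 1 to 4 thus had 39 to 44 of the 48 genes above the highest sham liver, high-LET tumors 5 to 7 had 21, 16 and 13, and high-LET tumor 7 had another 13 genes below the lowest sham liver.

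High-LET tumors 6 and 7 were those of mice given 1 Gy, and the other 5 came from 0.1 to 0.4 Gy. High-LET tumor 5, at 0.2 Gy, shared the dose of high-LET tumors 2 and 3. Which tumors came from iron and which from silicon ions is not given here. The part of dose or ion in these differences was not tested. All high-LET livers came from mice given 1 Gy, and their means over the 48 genes ran from -0.04 to 0.13, beside 0.15 and -0.00 in the 2 tumors of that dose. The other 5 tumors had no livers of their dose. Without high-LET tumor 7, 30 genes were called higher in high-LET HCC, and 19 without high-LET tumor 2. The arrays lay on 8 BeadChips that held several groups each. In all 10 comparisons that could be made within a BeadChip the median over the bright genes was positive, between 0.15 and 0.89, with 40 to 46 of 48 genes higher in the tumor. High-LET tumors 3 and 7 and low-LET tumor 3 lay on a BeadChip without livers and could not enter. Low-LET tumor 2 and spontaneous tumor 4 shared no BeadChip with the livers they are compared with. High-LET tumor 2 and low-LET tumor 1 each entered against both sham and irradiated livers.

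A set of 6 genes was called higher in all 3 kinds of HCC: Rpl3, Rpl12, Rps9, Rps10, Rps12 and Rps19. Rpl3 encodes a protein next to the site where peptide bonds form. Its log2 signal was 13.33 to 13.93 in high-LET tumors (median 13.64), 13.47, 13.42 and 13.77 in low-LET tumors, and 13.80, 13.63, 13.83 and 13.85 in spontaneous tumors, against 13.01 to 13.16 in sham livers (median 13.10). Every tumor lay above every sham liver. The log2 fold changes were 0.49 ± 0.07 (SE, limma adjusted p = 4.41e-05), 0.45 ± 0.09 (0.00111) and 0.68 ± 0.08 (1.12e-06).

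Rpl12 encodes a protein at the base of the ribosomal stalk, where elongation factors land. Its log2 signal was 12.88, 13.09, 13.28, 13.25, 12.30, 12.15 and 12.04 in the 7 high-LET tumors, 12.49, 12.89 and 12.79 in low-LET tumors, and 13.13, 13.00, 13.36 and 13.11 in spontaneous tumors, against 11.72 to 12.22 in sham livers (median 12.14). Low-LET and spontaneous tumors were all above the sham range, and high-LET tumors 6 and 7 were inside it. With a log2 fold change of 1.10 ± 0.18 (2.15-fold, limma adjusted p = 9.69e-05) in spontaneous tumors it had the largest rise among the members there, and in high-LET and low-LET tumors it changed by 0.66 ± 0.16 (0.00738) and 0.67 ± 0.20 (0.0337).

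Rps9 and Rps12 are proteins of the small subunit. Rps9 had log2 signals of 13.38 to 14.56 in high-LET tumors (median 13.77), 13.78, 13.82 and 13.25 in low-LET tumors and 13.59 to 14.27 in spontaneous tumors, against 13.11 to 13.18 in sham livers (median 13.14), with no overlap of tumors and sham livers. Its log2 fold changes were 0.73 ± 0.12, 0.47 ± 0.16 and 0.88 ± 0.14 (limma adjusted p = 0.000321, 0.0652 and 7.41e-05). Rps12 changed by 0.51 ± 0.10, 0.63 ± 0.13 and 0.86 ± 0.12 (0.0014, 0.00168 and 6.76e-06). Among its tumors only high-LET tumor 7, at 13.29, lay below the sham livers, which spanned 13.34 to 13.43.

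Rps10, Rps19 and further small subunit genes are mutated in human Diamond-Blackfan anemia, in which red cell precursors fail. Rps19, the gene most often mutated there, had log2 signals of 13.46, 13.44, 13.72, 13.89, 13.07, 13.18 and 12.84 in high-LET tumors, 13.16, 13.46 and 13.55 in low-LET tumors and 13.64, 13.48, 13.76 and 13.75 in spontaneous tumors, against 12.70 to 12.84 in sham livers. Only high-LET tumor 7 reached the sham range. Rps19 changed by 0.60 ± 0.11, 0.61 ± 0.14 and 0.88 ± 0.12 (limma adjusted p = 0.000596, 0.00386 and 1.23e-05). Rps10 changed by 0.53 ± 0.13, 0.49 ± 0.16 and 0.78 ± 0.15 (0.00698, 0.0559 and 0.000398). Of these 6 genes only Rps12 and Rps19 were called in low-LET HCC whichever low-LET tumor was left out. With median scaling the low-LET call of Rps19 was lost (limma adjusted p = 0.172), as were those of Rpl3, Rpl12, Rps9 and Rps10. The other probe of Rps19, at a mean of 6.40, changed by -0.07, -0.18 and -0.08. With the mean over its probes Rps19 fell short of the fold in high-LET and low-LET HCC, at 0.27 and 0.22. Without low-LET tumor 2 the low-LET calls of Rpl12, Rps9 and Rps10 were lost (limma adjusted p = 0.161, 0.312 and 0.153), that of Rps9 also without low-LET tumor 1 (0.238), and those of Rpl12 and Rps10 also without low-LET tumor 3 (0.124 and 0.302), where Rpl3 fell short of the fold at 0.35 (0.0292). Other anemia genes among the members include Rps7, Rps24 and Rps26, whose values follow.

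Upstream sequences of the ribosomal protein genes were taken from RefSeq on GRCm38.p6. Members that were called and members that were not were not compared. Of the 61 genes 50 had a promoter entry, with 60 promoters of 300 bases (250 before the annotated transcript start and 50 from it on). A run of 6 or more C or T on the transcript strand that began within 10 bases of the start was present in 26 of the 60 (43.3%), against 22.2% of all 32851 promoters. The heptamer CCGGAAG, on either strand, was present in 38.3% against 8.86%, and GGGCGG, on either strand, in 60% against 35.7%. TATAAA between 40 and 20 bases before the start occurred in 1.67% against 1.87%, CCAAT on either strand in 31.7% against 37.4%, and GCATGCGC on either strand in 1.67% against 2.71%. These are matches of letters and not tested sites. The sequences shown run from 100 bases before the start to 20 bases into the transcript, on the transcript strand. Rpl12, Rps9 and Rps10 are from the set of 6, and Rps6 and Rps7 from those called higher in high-LET HCC only. Rps27l is shown as a member with lower estimates that was called in no kind. Capitals mark the pyrimidine run.
Rpl12 at chr2:32961612-32961731 (+): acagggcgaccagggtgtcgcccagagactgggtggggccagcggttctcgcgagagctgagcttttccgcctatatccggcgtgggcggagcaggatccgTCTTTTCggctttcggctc
Rps9 at chr7:3703941-3704060 (+): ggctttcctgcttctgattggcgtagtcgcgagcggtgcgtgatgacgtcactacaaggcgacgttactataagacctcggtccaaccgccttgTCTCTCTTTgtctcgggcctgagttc
Rps10 at chr17:27635225-27635344 (-): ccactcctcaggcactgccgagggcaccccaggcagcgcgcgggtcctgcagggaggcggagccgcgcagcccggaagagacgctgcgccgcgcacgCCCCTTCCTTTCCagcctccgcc
Rps6 at chr4:86857348-86857467 (-): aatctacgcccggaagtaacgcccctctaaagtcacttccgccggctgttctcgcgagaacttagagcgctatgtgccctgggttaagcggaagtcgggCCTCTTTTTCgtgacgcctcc
Rps7 at chr12:28635934-28636053 (-): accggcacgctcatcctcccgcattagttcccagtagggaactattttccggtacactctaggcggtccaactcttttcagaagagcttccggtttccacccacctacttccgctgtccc
Rps27l at chr9:66945986-66946105 (+): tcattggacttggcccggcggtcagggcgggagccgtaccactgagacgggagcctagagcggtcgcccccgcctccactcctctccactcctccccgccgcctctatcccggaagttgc

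The runs of Rpl12, Rps9, Rps10 and Rps6 were 7, 9, 13 and 10 bases long. Rps7 and Rps27l had no run that met the rule, and Rps7 and Rps27l, like Rps6 and Rps10, held CCGGAAG on one strand of their 300 bases. The annotated start may lie some bases off the position where most transcripts begin, so the absence of a run says only that these letters are not in this window.

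The 5 genes that were called higher in high-LET HCC and in neither other kind were Rps6, Rps7, Rps3, Rpl9 and Rpl29. Rps6, the small subunit protein that S6 kinase phosphorylates, was the member with the largest rise in high-LET HCC. Its log2 signal was 13.00, 12.96, 13.21, 13.59, 12.61, 12.55 and 12.17 in high-LET tumors, 13.01, 13.14 and 10.62 in low-LET tumors and 12.95, 11.41, 12.90 and 13.40 in spontaneous tumors, against 11.49 to 12.18 in sham livers (median 11.88). The log2 fold changes were 1.02 ± 0.30 (2.03-fold, limma adjusted p = 0.0281), 0.41 ± 0.38 (0.697) and 0.82 ± 0.34 (0.149).

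Low-LET tumor 3 and spontaneous tumor 2 thus lay below the sham livers for Rps6, while the other 5 tumors of those kinds lay above them. Rps7, one of the anemia genes, had the same pattern, with 10.68 and 11.17 in these 2 tumors, 12.78 to 13.23 in the other 5 and 11.64 to 12.16 in sham livers. It changed by 0.89 ± 0.28 (limma adjusted p = 0.0438), 0.17 ± 0.35 (0.899) and 0.53 ± 0.32 (0.393), and its call in high-LET HCC was lost without sham liver 2 (limma adjusted p = 0.105). Rps3, a protein at the entry of the mRNA channel, had 8.83 and 9.02 there, 10.36 to 10.46 in 4 of the other 5 tumors and 9.22 to 10.06 in sham livers, with spontaneous tumor 3 inside the sham range. The size of the fall in these 2 tumors differed between probes. From the sham mean, the brightest Rps3 probe stood at -0.80 and -0.62 and the other at -0.16 and -0.28. For Rps2 the brightest probe stood at -0.26 and -0.07 and the other at -1.94 and -0.67.

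Rps3 changed by 0.94 ± 0.28 in high-LET HCC (limma adjusted p = 0.0313), and Rpl9, a large subunit protein, by 0.76 ± 0.20 (0.0153). Rpl9 had 12.25 and 12.76 in low-LET tumor 3 and spontaneous tumor 2, against 12.79 to 13.22 in sham livers. The difference of high-LET HCC from the other kinds did not pass the test for any of these: Rps6 differed by 0.21 ± 0.33 from spontaneous tumors (limma adjusted p = 0.859) and by 0.62 ± 0.37 from low-LET tumors (0.604), and Rps3 by 0.62 ± 0.31 (0.367) and 0.69 ± 0.34 (0.48).

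Of the 48 bright genes, 17 lay below the lowest sham liver in low-LET tumor 3 and 9 in spontaneous tumor 2, and all 9 were among the 17: Rpl7a, Rpl7l1, Rpl9, Rpl22, Rpl30, Rps3, Rps6, Rps7 and Rps27l. Rpl7a, a large subunit protein, stood at 8.28 in low-LET tumor 3, against 9.50 to 9.98 in sham livers. Rps4x had 12.10 and 12.69 in these 2 tumors, against 12.58 to 12.82 in sham livers, and 13.31 to 13.73 in the other 5. In the same 2 tumors Rpl3, Rpl12, Rps10, Rps12, Rps19, Rps24, Rps25 and Rps26 were all above the sham means. The spread over the 48 genes within low-LET tumor 3 (SD 0.64) was the largest of the 34 arrays, against 0.10 to 0.15 in sham livers.

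Eef2, the elongation factor that moves the ribosome along the message and itself a TOP message, is not a ribosomal protein but had the same low values. Its log2 signal was 7.97 in low-LET tumor 3 and 8.94 in spontaneous tumor 2, 10.52 to 12.91 in the other 12 tumors and 9.83 to 10.82 in sham livers. Without these 2 tumors, a comparison added after the data were seen, 25 genes were called higher in high-LET tumors, 10 in low-LET tumors and 40 in spontaneous tumors, with medians of 0.31, 0.27 and 0.59. The shares of all genes called without these 2 tumors are not given here. What sets these 2 tumors apart was not tested.

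**Figure D4:**
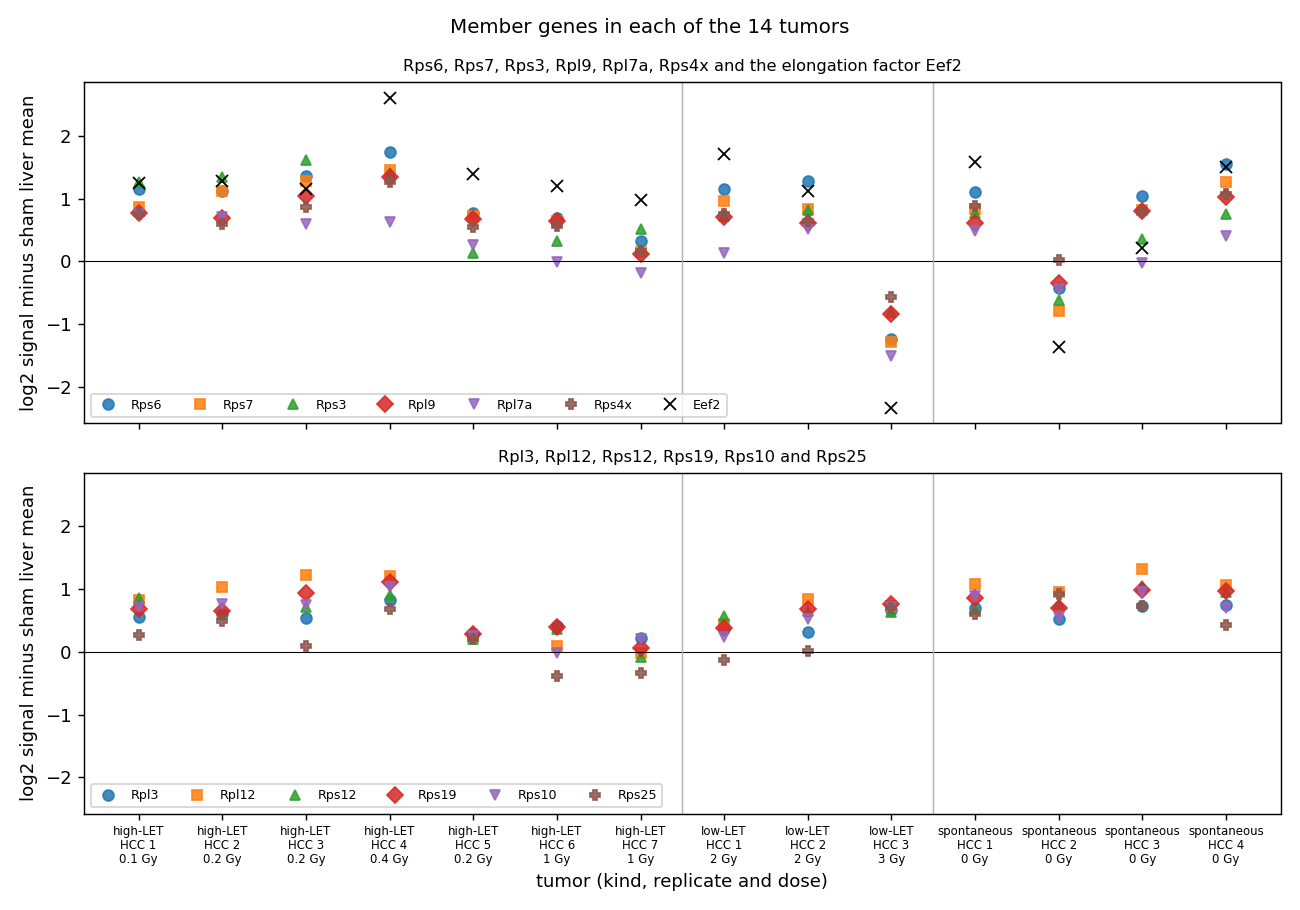
Log2 signal minus the sham liver mean of 12 ribosomal protein genes and Eef2 in each of the 14 tumors, labelled by kind, number and dose. In the upper panel Rps6, Rps7, Rps3, Rpl9, Rpl7a and Eef2 are below 0 in low-LET tumor 3 and spontaneous tumor 2, while in the lower panel Rpl3, Rpl12, Rps12, Rps19, Rps10 and Rps25 are above 0 there.

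In 13 genes the call was made in high-LET and spontaneous HCC only, among them Rps4x, Rps13, Rpl39 and Rplp0. Rps4x, the X-linked partner of Rps4l, changed by 0.68 ± 0.16 in high-LET tumors (limma adjusted p = 0.00774), 0.29 ± 0.21 in low-LET tumors (0.575) and 0.69 ± 0.19 in spontaneous tumors (0.0142). Rps13 changed by 0.69 ± 0.17, 0.25 ± 0.21 and 0.80 ± 0.19, with calls in high-LET and spontaneous HCC. Rpl39, a small protein that lines the exit tunnel, had 12.23 to 13.51 in high-LET tumors, 12.36, 12.85 and 12.65 in low-LET tumors and 12.77, 12.69, 13.00 and 12.93 in spontaneous tumors, against 11.97 to 12.56 in sham livers. All spontaneous tumors but only 4 high-LET and 2 low-LET tumors were above that range. With median scaling the spontaneous calls of Rps4x, Rps13 and Rpl39 were lost (limma adjusted p = 0.246, 0.108 and 0.357), as was the high-LET call of Rpl39 (0.146), which was also lost with array weights (0.17). The spontaneous call of Rpl39 was lost without spontaneous tumor 3 (0.105).

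Rpl19 and Rps26 were called higher in low-LET and spontaneous HCC only. Rpl19 had log2 signals of 10.98, 11.19 and 11.55 in low-LET tumors and 11.35, 11.39, 11.46 and 11.31 in spontaneous tumors, against 10.62 to 10.91 in sham livers, with no overlap. Its changes were 0.51 ± 0.13 (limma adjusted p = 0.0111) in low-LET tumors and 0.65 ± 0.12 (0.000298) in spontaneous tumors, and in high-LET tumors it changed by 0.37 ± 0.10 (0.0202), just short of the fold required. Without low-LET tumor 3 the low-LET calls of Rpl19 and Rps26 were lost, at 0.36 (limma adjusted p = 0.169) and 0.27 (0.464).

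Another 13 genes were called higher in spontaneous HCC only, among them Rps24, Rps25, Rpl13a, Rpl38, Rplp1 and Rplp2. Rps25 had log2 signals of 11.41, 11.73, 11.55 and 11.24 in spontaneous tumors and 10.42 to 11.49 in high-LET tumors, against 10.36 to 11.24 in sham livers. It changed by 0.67 ± 0.17 in spontaneous tumors (limma adjusted p = 0.00879) and by 0.15 ± 0.15 in high-LET tumors (0.689). The remaining 22 genes were called higher in none of the 3 kinds, 12 of them dim and 10 bright.

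The stalk proteins Rplp0, Rplp1 and Rplp2 recruit elongation factors to the large subunit. Rplp0 changed by 0.39 ± 0.12 (limma adjusted p = 0.0362), 0.20 ± 0.15 (0.586) and 0.43 ± 0.14 (0.038) in the 3 kinds of tumor. Its probe was dim, at 6.93 to 7.80 in high-LET tumors and 7.11 to 7.81 in spontaneous tumors, against 6.85 to 7.02 in sham livers. Its calls were lost without single arrays, among them high-LET tumor 1 (0.31, limma adjusted p = 0.0874, under the fold required) and spontaneous tumor 1 (0.28, 0.255). Rplp1 changed by 0.35 ± 0.08 (0.00329), 0.23 ± 0.10 (0.191) and 0.50 ± 0.09 (0.000219), and Rplp2 by 0.35 ± 0.13 (0.0966), 0.38 ± 0.16 (0.178) and 0.61 ± 0.15 (0.0048).

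Rplp1 and Rplp2 were therefore called in spontaneous tumors only, although both in high-LET tumors missed the fold and not the p. Rpl41, which encodes the smallest protein of the ribosome, had 14.57 to 14.79 in high-LET tumors, 14.68, 14.59 and 14.22 in low-LET tumors and 14.70, 14.47, 14.70 and 14.79 in spontaneous tumors, against 14.27 to 14.45 in sham livers. Every high-LET and spontaneous tumor was above the sham range, by a small margin. The changes of 0.31 ± 0.06 (limma adjusted p = 0.000594) and 0.29 ± 0.07 (0.00273) in high-LET and spontaneous HCC stayed under the fold required.

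Paralogs are gene copies, and those that encode a protein can replace the usual one in certain tissues or states. Rps4l is counted here as a paralog by its symbol but is annotated as a transcribed pseudogene. Of the 6 paralogs measured, Rps4l was called lower in each kind of HCC and none was called higher, but only Rps27l and Rpl7l1 were above background on every array. Rps4l had log2 signals of 5.91, 5.97, 6.07, 5.93, 6.29, 6.25 and 6.39 in high-LET tumors, 5.99, 6.08 and 5.96 in low-LET tumors and 6.15, 5.95, 6.01 and 5.84 in spontaneous tumors, against 6.64 to 7.64 in sham livers (median 7.17). All 14 tumors were below all 6 sham livers.

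Its log2 fold changes were -1.02 ± 0.18, -1.12 ± 0.23 and -1.14 ± 0.21 (limma adjusted p = 0.000474, 0.00162 and 0.000288). The signal of Rps4l was near the background limit, which it passed in 4 of 7, 1 of 3 and 1 of 4 tumors of these kinds, and the size of the fall ran from -0.72 to -3.07 in high-LET HCC over the processing settings. Its partner Rps4x rose, as given above. Rps27l, a paralog of Rps27 that p53 induces, was bright and a little lower: 12.97 to 13.49 in high-LET tumors, 13.12, 13.53 and 13.07 in low-LET tumors and 13.07, 13.31, 13.19 and 13.44 in spontaneous tumors, against 13.41 to 13.59 in sham livers.

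Rps27l changed by -0.28 ± 0.08 (limma adjusted p = 0.0274), -0.25 ± 0.10 (0.173) and -0.24 ± 0.09 (0.109), and none of these passed the fold required. Rpl7l1, which takes part in large subunit assembly, changed by 0.01 ± 0.12, -0.20 ± 0.15 and -0.06 ± 0.14. Rpl3l, known as the muscle partner of Rpl3, was at 5.80 to 6.11 in 6 high-LET tumors and at 7.24 in high-LET tumor 3, against 5.94 to 6.18 in sham livers. Rpl22, a large subunit protein that binds its own messages and that of its paralog, changed by 0.24 ± 0.17, -0.09 ± 0.22 and 0.37 ± 0.20 (limma adjusted p = 0.513, 0.92 and 0.32), and Rpl22l1 and Rpl39l were too dim to follow.

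**Figure D5:**
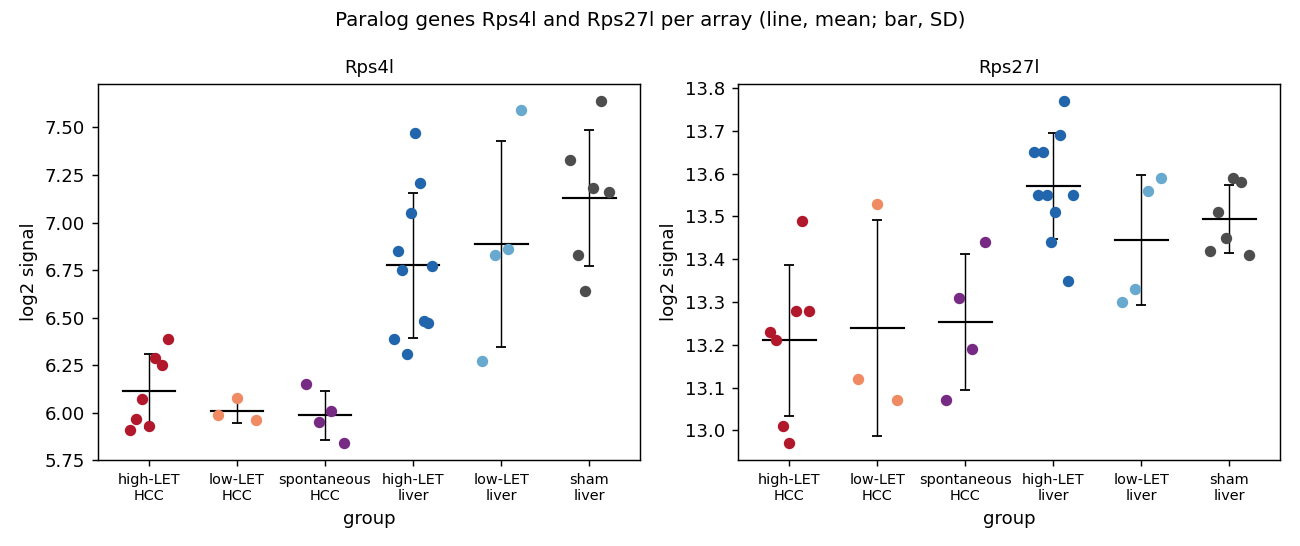
Log2 signal of Rps4l (left) and Rps27l (right) on each of the 34 arrays by group, with the group mean (line) and SD (bar). Rps4l lies at 5.84 to 6.39 in all tumors and at 6.27 to 7.64 in the livers, and Rps27l is lower in most tumors with overlap between tumors and livers.

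Set against livers of mice given the same type of radiation (high-LET or low-LET), the same tumor arrays gave the following counts. Ion and dose were not matched. Tumors from iron or silicon ions at 0.1 to 1 Gy stood against livers from iron ions at 1 Gy. Low-LET tumors of 2 to 3 Gy stood against low-LET livers of 3 to 7 Gy. In high-LET HCC 23 of 61 genes (37.7%) were called higher than in high-LET livers, against 5.64% of all genes, and 1 (Rps4l) lower, against 6.15%. In low-LET HCC 11 of 61 (18%) were called higher than in low-LET livers, against 4.91% of all genes, and 1 (Rps4l) lower, against 5.00%. The medians over the 61 genes were 0.29 and 0.25.

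Rps6, Rps3 and Rps7 led in high-LET HCC against high-LET livers, at 1.07 ± 0.26, 1.03 ± 0.25 and 0.88 ± 0.25 (limma adjusted p = 0.00601, 0.0049 and 0.0161). Rpl12 led in low-LET HCC against low-LET livers, at 0.86 ± 0.22 (0.0138), followed by Rps12 at 0.70 ± 0.14 (0.00189). Rps4l changed by -0.66 ± 0.16 (0.00502) and -0.87 ± 0.25 (0.0287), with high-LET livers at 6.31 to 7.47 and low-LET livers at 6.27, 6.83, 6.86 and 7.59, so that the ranges of tumors and livers overlapped at their edges for high-LET tumors and not for low-LET tumors. The low-LET call of Rps4l was lost with median scaling (limma adjusted p = 0.114), with BeadChip as a fixed block (0.17), without low-LET tumor 3 (0.106) and without low-LET liver 4 (0.146), and its size ran from -0.61 to -2.91 over the processing settings. The low-LET count of 11 was 4 with BeadChip as a fixed block, 5 without low-LET tumor 3, 1 with median scaling, 22 with array weights and 16 without high-LET tumor 4.

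No ribosomal protein gene was called between irradiated and sham livers. In high-LET and low-LET livers against sham livers 0 of 61 genes were called, against 0% and 0% of all genes, and an unadjusted p under 0.05 was reached by 1 and 2 of the 61, against 2.79% and 2.99% of all genes. The medians were 0.02 and -0.03, with estimates from -0.36 to 0.12 in high-LET livers and from -0.25 to 0.25 in low-LET livers. The lowest estimate in high-LET livers, -0.36, was that of Rps4l. With BeadChip as a fixed block the high-LET median was -0.07.

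Few of the genes were called between the kinds of HCC. In high-LET tumors 3 of 61 genes were lower than in spontaneous tumors, against 2.52% of all genes, and 0 were higher, against 0.971%. All 3 were among the 48 bright genes, and of all genes of that brightness 5.83% were called lower. The 3 were Rpl38, a small protein of the large subunit, at -0.50 ± 0.13 (limma adjusted p = 0.0397), Rps26 at -0.47 ± 0.13 (0.0563) and Rps24 at -0.44 ± 0.13 (0.071). Rps24 and Rps26 are anemia genes, and Rps24 had log2 signals of 12.41 to 13.54 in high-LET tumors (median 12.95), against 13.28, 13.23, 13.50 and 13.49 in spontaneous tumors.

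For Rps26 the values were 12.34 to 13.49 in high-LET tumors (median 12.86), against 13.23, 13.18, 13.51 and 13.43 in spontaneous tumors, and high-LET tumor 4 alone of the 7 reached the spontaneous range. The count of 3 became 0 when spontaneous tumor 3 was left out and 7 without high-LET tumor 4, and it was 0 with median scaling or with BeadChip as a fixed block and 15 with array weights. The calls of Rps24 and Rps26 were also lost without high-LET tumor 5, 6 or 7 or spontaneous tumor 4 (limma adjusted p between 0.106 and 0.148). Low-LET tumors against spontaneous tumors gave 0 calls, against 0.0105% of all genes, and high-LET tumors against low-LET tumors gave 0, against 0.887%. At an unadjusted p under 0.05, 13 and 11 of the 61 genes passed in these comparisons, against 5.73% and 12.8% of all genes, and 17 between high-LET and spontaneous tumors, against 16.8%. Among the 48 bright genes 12, 10 and 15 passed in the same order, against 8.07%, 25% and 29.4% of all genes of that brightness. The medians over the 61 genes were -0.12 for high-LET tumors and -0.24 for low-LET tumors against spontaneous tumors, and 0.04 for high-LET tumors against low-LET tumors.

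The interaction of radiation and HCC asks whether the change in a tumor depends on the radiation. By a moderated F test at an adjusted p under 0.2, 0 of 61 genes had an interaction, with a lowest adjusted p of 0.256 (limma) for Rpl21, against 181 of all genes (0.950%). When arrays were weighted by their quality the number became 17, Rpl12, Rps19 and Rps24 among them, against 2152 of all genes (11.3%). Array weights ran from 0.28 for low-LET tumor 3 to 2.13 for low-LET tumor 2.

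Most other bright probes of the same genes were higher in tumors than in sham livers. In 20 genes a total of 29 further probes were measured. The 11 with a mean log2 signal of 8 or more were all higher in spontaneous HCC than in sham livers, and 7 of them were called. In high-LET HCC 10 and in low-LET HCC 9 of these 11 were above sham livers, the exceptions being Rpl38 in both (-0.26 and -0.06) and Rps2 in low-LET HCC (-0.51). The brightest Rps2 probe was also below sham livers in low-LET HCC, at -0.31. In spontaneous HCC it was at -0.01 and the other at 0.10. Of the 18 dimmer ones 1 was called, with estimates from -0.21 to 0.40. No gene had probes called in opposite directions. Rpl23 was an exception on 1 array: its brightest probe stood at -0.85 from the sham mean in high-LET tumor 1, where its other bright probes stood at 0.13 and 0.45.

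Genes that make or use ribosomes were called less uniformly, and their counts against sham livers are given for high-LET, low-LET and spontaneous tumors in that order. The shares of all genes called in these comparisons were 4.62%, 5.40% and 7.32% higher and 5.47%, 6.00% and 6.89% lower. Of 70 ribosome biogenesis genes, 0 were called higher and 4 lower in high-LET tumors, 3 higher and 3 lower in low-LET tumors, and 13 higher and 4 lower in spontaneous tumors. The counts of these 70 genes called lower were near the shares of all genes. Gar1 and Nop58, proteins of the particles that modify ribosomal RNA, changed by 1.03 ± 0.21 and 0.95 ± 0.23 in spontaneous HCC (limma adjusted p = 0.000814 and 0.00551). Tsr1, which matures the small subunit, fell in all 3 kinds, by 0.75 ± 0.17, 1.19 ± 0.22 and 1.46 ± 0.20 on the log2 scale (0.00505, 0.000572 and 7.18e-06). Of 15 genes of RNA polymerase I, the enzyme that makes ribosomal RNA, 1, 0 and 5 were called higher in the 3 kinds.

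Of 8 elongation factor genes 2, 1 and 3 were called higher, with Eef1b2 and Eef2 in high-LET tumors, Eef1d in low-LET tumors and Eef1b2, Eef1d and Eef1g in spontaneous tumors. Of 10 further TOP messages 3, 0 and 2 were called higher, among them Eif3f in high-LET and spontaneous tumors (0.50 ± 0.09 and 0.61 ± 0.10) and Npm1, a nucleolar chaperone, in spontaneous tumors (0.86 ± 0.23). Of 32 initiation factor genes 3, 0 and 4 were called higher and 1, 1 and 0 lower. For these lists too the shares of all genes were 4.62%, 5.40% and 7.32% called higher and 5.47%, 6.00% and 6.89% called lower. Rpsa and Rpl36al, ribosomal proteins that the symbol rule does not take, were called in no kind.

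Of 20 MYC and mTORC1 genes, which control ribosome production, 1, 0 and 2 were called higher and 2, 1 and 0 lower, beside 4.62%, 5.40% and 7.32% of all genes called higher and 5.47%, 6.00% and 6.89% called lower. Mtor, the kinase of mTORC1, changed by -0.71 ± 0.11 in high-LET tumors (limma adjusted p = 0.000171), -0.50 ± 0.14 in low-LET tumors (0.0257) and -0.29 ± 0.13 in spontaneous tumors (0.184). Myc changed by 0.05 ± 0.09, -0.02 ± 0.12 and 0.00 ± 0.11. Of 9 genes of the p53 response to nucleolar stress 2, 4 and 2 were called higher, with Cdkn1a and Phlda3 in each kind.

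The mitochondrial ribosome, a separate particle encoded by other nuclear genes, had more genes called lower than higher. Of 76 mitochondrial ribosomal protein genes 0, 0 and 1 were called higher and 15, 23 and 15 lower in the 3 kinds, with medians of -0.18, -0.28 and -0.21. Beside them, 4.62%, 5.40% and 7.32% of all genes were called higher and 5.47%, 6.00% and 6.89% lower. Among all genes of mean log2 signal 8 or more, 9.26%, 10.5% and 15.5% were called higher and 16.1%, 16.8% and 18.6% lower. How many of the 76 were that bright is not given here. Mrpl14 changed by -0.51 ± 0.09, -0.69 ± 0.11 and -0.49 ± 0.10 (limma adjusted p = 0.000426, 0.000155 and 0.00145). Mrpl23, at 0.51 ± 0.13, was the gene called higher in spontaneous HCC. Of 8 RNA polymerase II core subunit genes 1, 0 and 1 were called higher, Polr2h in both cases.

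Cell type markers changed in part with the tumors. Over all genes 4.62%, 5.40% and 7.32% were called higher in the 3 kinds and 5.47%, 6.00% and 6.89% lower. Of 8 macrophage and Kupffer cell genes 4, 0 and 2 were called higher, with C1qa and C1qb in high-LET and spontaneous HCC, and Cd5l was never above background. Of 7 proliferation genes 0, 3 and 1 were called higher, with Ccna2 never above background. Of 10 hepatocyte genes 1 (Cps1, in low-LET HCC) was called lower. Of 8 T lymphocyte and 5 B lymphocyte genes 1 (Cd3g, in low-LET HCC) was called higher. Of 9 endothelial genes 2, 0 and 0 were called higher and 0, 0 and 1 lower. Of 9 stellate cell and fibroblast genes 0, 2 and 1 were called higher and 0, 0 and 1 lower. Of 5 cholangiocyte genes none was called and Epcam and Cftr were never above background. Of 4 erythroid genes Alas2 was called lower in each kind. The other 3 had positive estimates in each kind and were not called, and the medians over the 4 genes were 0.41, 0.39 and 0.34. Against high-LET livers 2 of the 4 were called higher in high-LET HCC and 1 lower. The part of these cells in the values of the ribosomal protein genes was not tested.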

How the data were processed

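The authors summarized the BeadChip scans in GenomeStudio and deposited a table of probe intensity values without normalization, and a table of log2 values after background subtraction and quantile normalization. The deposited intensity values were background-corrected (normexp, offset 50), normalized by quantiles and log2-transformed with limma 3.58.1 in R 4.3.3. Probes were named from the platform's gene annotation. A linear model with 6 group means over 34 arrays was fitted to 45219 probes, and moderated statistics were adjusted by Benjamini-Hochberg. The fit was tested on simulated data. The members, gene lists and tests were chosen with earlier results of these data known. Named were the 5 largest rises and falls among called members in each kind of HCC, the stalk proteins, the Diamond-Blackfan anemia genes, Rps6, Rpl41, the paralogs with their partners, and up to 4 genes of each other list; Rps3, Rps4x, Rpl7a, Rpl22, Rpl23, Rps13, Rps25, Eef2 and others named for a pattern were chosen after their values were seen. Alternatives were the authors' values, other background correction, scaling, filters, blocks, models and thresholds, and leaving out each array.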

Additional observations from a re-analysis of the deposited data

Results flagged for a closer look

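Of 150 groups of 4 to 10 arrays tested for an array far from the others, 8 were flagged, and chance flags about 1 in 20. Rpl3l stood at 7.24 on the log2 scale in high-LET HCC 3, where the next highest high-LET tumor had 6.11. Rpl23 stood at 13.24 in high-LET HCC 1, with the next at 14.19, and its other bright probes did not show that gap. Rplp1 was lowest at 14.14 in high-LET HCC 7, with the next at 14.56, and at 14.45 in spontaneous HCC 2, with the next at 14.81.

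In the livers, Rps10 was at 11.79 in high-LET liver 1, with the next at 12.01. Rpl9 was at 13.45 in high-LET liver 9, with the next at 13.16, and the mean over the bright small subunit genes was also highest in that liver, at 0.13 with the next at 0.05. Rps3 was at 8.92 in low-LET liver 1, with the next at 9.82. No member had every tumor of 1 kind of HCC above and every tumor of another kind below its liver mean.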

How the results depend on the processing

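Of 66 called pairs of a named gene and a comparison, none changed direction. Counts of genes called higher against sham livers were 24 in high-LET HCC (15 with array weights, 10 at a stricter threshold of 0.05 with a fold above 1.5, 19 to 30 leaving out 1 array), 8 in low-LET HCC (1 with median scaling, 18 with array weights, 3 at the stricter threshold, 5 to 12 leaving out 1 array) and 34 in spontaneous HCC (11 with median scaling, 29 to 39 leaving out 1 array). Against livers of the same type of radiation they were 23 in high-LET HCC (15 with array weights, 10 at the stricter threshold, 19 to 29 leaving out 1 array) and 11 in low-LET HCC (1 with median scaling, 4 with BeadChip as a fixed block, 22 with array weights, 6 with the mean over all probes of a gene, 4 at the stricter threshold, 7 without the 2 tumors of low Eef2, 5 to 16 leaving out 1 array). For high-LET HCC against low-LET HCC the count was 0 (1 with array weights, 1 with the mean over probes, 2 with no minimum fold, 1 without the 2 tumors, 0 to 1 leaving out 1 array). The count of genes with an interaction was 0 (1 with probes above background on at least 10 arrays, 17 with array weights, 0 to 4 leaving out 1 array). The median of high-LET livers against sham livers was -0.07 with BeadChip as a fixed block. Except for the interaction with array weights, the shares of all genes called under these settings are not given. The cause of these shifts was not tested. Of the 66 pairs, 42 stayed called with median scaling and 42 at the stricter threshold. No paired analysis was possible because the labels give no replicate numbers that link samples across groups. The number of arrays, 3 in low-LET HCC, limits the precision, and members near background cannot be followed.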
